A study of Mus musculus with 16 samples.

Results

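The comparison set the hippocampus of N-dCKO mice, in which APP and APLP2 are both labelled as lost, against that of APLP2KO mice, in which APLP2 alone is labelled as lost, and so asked what the loss of APP changes where APLP2 is already missing. It rests on 8 of the 16 arrays of the series, 4 per group, chosen by the group names in the sample titles. The genotype label of N-dCKO is APP-/-; APLP2-/- and that of APLP2KO is APLP2-/-. The remaining 8 arrays, 4 of APPKO mice (labelled as lacking APP) and 4 of WT mice, gave the loss of APP on a background with APLP2, and share no array with the comparison. All mice were males of the strain labelled C56/BL6 at 2 months of age. The series title calls the double knockout neuronal and double-conditional. The sources used here do not give the driver of the deletion or the cells that carried it. No label says that the 4 arrays of a group came from separate animals, so each p-value reflects only how these samples vary, and that variation may be technical.

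APP, the amyloid precursor protein, is a membrane protein with a large extracellular part and a short intracellular tail. APLP2 and APLP1 are its relatives. All 3 are cut by alpha- or beta-secretase outside the membrane and by gamma-secretase within it, and mice without both APP and APLP2 in all cells die shortly after birth, while mice without either alone survive. In the hippocampus APP is made at high levels by neurons and is found at synapses. The choroid plexus, a secretory epithelium in the ventricles beside the hippocampus, makes cerebrospinal fluid, and its markers can enter a hippocampal sample.

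The median signal of the 8 arrays was 85.1 to 102, in the arbitrary units of MAS5 intensity. Of 4 measures of array quality, none passed an exact two-sided permutation test between the groups (p from 0.0571 to 0.857, adjusted 0.229 or higher). Gapdh probe sets at the 3' end over those at the 5' end, a ratio that follows RNA integrity, gave 0.813 ± 0.017 in N-dCKO and 0.779 ± 0.031 in APLP2KO (SD, n = 4 each, exact permutation p = 0.114). N-dCKO array 3 stood apart from the other N-dCKO arrays in choroid plexus genes, as described below, and results that rest on it are given with and without it.

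Promoters are shown for Cldn2, one of the genes that passed the test, for Otx2, a transcription factor of the choroid plexus, and for Msmo1, one of the cholesterol synthesis genes that lay lower together. Each window runs from 250 bases before to 50 bases after the annotated start, is written 5′ to 3′ along the gene's strand, and comes from RefSeq on GRCm38.p6. Capitals mark matches, on either strand, to TAATCC (the core bound by OTX factors) in Cldn2 and Otx2, and to CCAAT (the CCAAT box) in Msmo1.
Cldn2, chrX:139800558-139800857, plus strand: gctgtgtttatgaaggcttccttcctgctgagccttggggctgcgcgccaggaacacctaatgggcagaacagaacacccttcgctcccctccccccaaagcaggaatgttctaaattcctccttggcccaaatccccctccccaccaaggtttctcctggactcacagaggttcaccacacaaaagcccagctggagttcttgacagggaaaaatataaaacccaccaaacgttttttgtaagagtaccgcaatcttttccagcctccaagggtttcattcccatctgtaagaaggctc
Otx2, chr14:48665060-48665359, minus strand: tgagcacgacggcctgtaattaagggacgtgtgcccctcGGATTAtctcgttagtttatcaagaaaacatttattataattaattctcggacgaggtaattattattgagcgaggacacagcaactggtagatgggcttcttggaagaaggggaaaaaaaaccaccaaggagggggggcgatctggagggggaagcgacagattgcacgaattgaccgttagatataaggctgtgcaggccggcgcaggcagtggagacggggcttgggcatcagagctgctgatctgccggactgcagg
Msmo1, chr8:64733529-64733828, minus strand: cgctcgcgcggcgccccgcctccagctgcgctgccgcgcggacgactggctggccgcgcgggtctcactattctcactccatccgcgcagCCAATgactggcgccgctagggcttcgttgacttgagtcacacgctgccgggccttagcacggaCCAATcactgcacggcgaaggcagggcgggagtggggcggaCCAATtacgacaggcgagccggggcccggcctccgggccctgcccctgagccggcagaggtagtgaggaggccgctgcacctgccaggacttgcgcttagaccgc
The Cldn2 window held 0 matches to TAATCC. The Otx2 window held 1, on the opposite strand. It was shown because it had the most matches of the 4 windows annotated for that gene. Over the choroid plexus list, 2 of 27 windows from 17 genes held TAATCC (7.41%), against 7.06% of all 32851 windows. These 2 were a window of Igf2 and the Otx2 window shown, so the other Otx2 windows held none. The Msmo1 window held 3 matches to CCAAT, and 16 of 20 windows of the cholesterol and fatty acid synthesis list held at least 1 (80%), against 37.4% of all windows. A sterol regulatory element, searched as TCACNCCAC, was present in 1 of these 20 windows (5%), against 1.24% of all. A match describes letters in a window and does not show that a factor binds there.

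App signal was low in every N-dCKO array. Its brightest probe set read 2322, 1959, 2381 and 2103 in the N-dCKO arrays, against 19762, 17715, 21078 and 20062 in the APLP2KO arrays. The groups were far apart, with a log2 fold change of -3.16 ± 0.07 (SE) and 11.1% of the APLP2KO signal left (limma adjusted p = 4.18e-17). In APPKO 13.6% of the WT signal was left. Another App probe set kept 5.04% of the APLP2KO signal, with a log2 fold change of -4.29. Both probe sets had an exact two-sided permutation p of 0.0286, the smallest that 4 against 4 arrays allow. The other 2 App probe sets were dim in both groups, with mean signals of 10.2 in N-dCKO against 20.8 in APLP2KO and of 4.94 in N-dCKO against 11.9 in APLP2KO, and check nothing. The sources used here do not place the probes within or outside the deleted exons.

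Aplp2 was low in both groups, as both labels say. It read 860.4, 938, 1132 and 1064 in N-dCKO, against 1235, 1501, 847 and 1065 in APLP2KO, while APPKO and WT averaged 5778 ± 277 and 5984 ± 229 (SD, n = 4 each). The N-dCKO and APLP2KO arrays overlapped (log2 fold change -0.19 ± 0.12, exact permutation p = 0.4). Without APLP2KO array 3 the value was -0.34 (exact permutation p = 0.114, limma unadjusted p = 0.00299, adjusted 0.341), and without APLP2KO array 2 it was -0.06. Aplp1, the family member that both groups keep, averaged 14453 ± 1218 in N-dCKO and 15214 ± 1144 in APLP2KO (SD, n = 4 each). Its log2 fold change was -0.07 ± 0.06 (exact permutation p = 0.314).

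**Figure D1:**
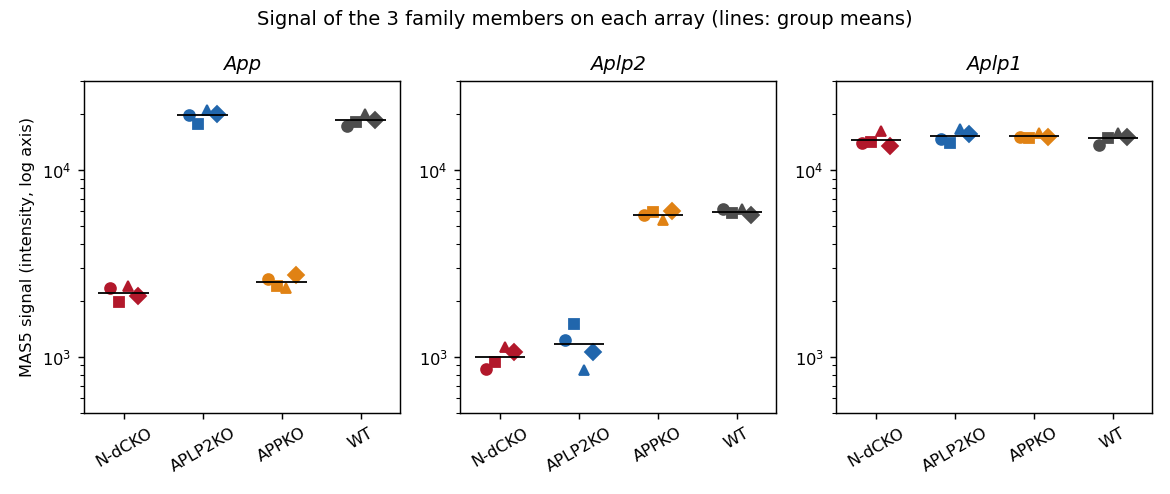
MAS5 signal (log axis) of the brightest probe set of App, Aplp2 and Aplp1 on each of the 16 arrays, with symbols for arrays 1 to 4 and lines at the group means. App is low in N-dCKO and APPKO, Aplp2 is low in N-dCKO and APLP2KO, and Aplp1 is bright in all groups.

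Of 11664 genes tested, 3 passed limma at a Benjamini-Hochberg adjusted p below 0.05 (0.0257%), and all 3 were lower in N-dCKO: App, Defb11 and Cldn2. Without adjustment, 985 genes (8.44%) had a p below 0.05, of which 503 (4.31%) lay lower and 482 (4.13%) higher. The 4 N-dCKO arrays lay wholly below the 4 APLP2KO arrays for 348 genes (2.98%) and wholly above them for 262 (2.25%), or 5.23% together. The median log2 fold change of all genes was 0.0044, and 48.4% of genes were negative. In APPKO against WT, 1 gene passed (0.00857%).

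Defb11, a gene of the beta-defensin family of small antimicrobial peptides, fell in N-dCKO. Its signal was 33.6, 9.16, 100.4 and 7.53 in N-dCKO, against 227, 271, 217 and 155 in APLP2KO. The groups did not overlap (log2 fold change -2.69 ± 0.44, limma adjusted p = 0.0314), and N-dCKO array 3 was the highest of its group. Cldn2, a claudin that forms cation- and water-permeable tight junctions in leaky epithelia such as the choroid plexus, fell as well. Its signal was 41.4, 51.0, 153 and 52.4 in N-dCKO, against 232, 242, 336 and 203 in APLP2KO. Here too the groups did not overlap and N-dCKO array 3 was the highest of its group (log2 fold change -1.80 ± 0.30, limma adjusted p = 0.0314). The calls of Defb11 and Cldn2 depended on single arrays: App was the 1 gene called when any of the other 7 arrays was left out, and 35 genes passed without N-dCKO array 3, 32 of them lower.

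Markers of the choroid plexus lay lower in N-dCKO as a group. Of 22 listed genes 18 were tested, and all 18 lay below 0, at a median log2 fold change of -1.63. Of these 1 passed the test (Cldn2) and 17 had an unadjusted p below 0.05 (all genes tested: median 0.0044, 4.31% lower at that p). Otx2, Kcne2, Aqp1 and Clic6 averaged 4.76, 4.82, 5.72 and 6.11 in N-dCKO. They too lay below the filter there and passed it through the other groups. The means of the list on the log2 scale were 6.24, 6.65, 8.50 and 6.59 in the N-dCKO arrays, against 8.68, 8.88, 8.90 and 8.67 in the APLP2KO arrays. N-dCKO array 3 lay just below the APLP2KO arrays and far above the other 3. It was the highest N-dCKO array for 17 of the 18 genes, and N-dCKO arrays 1, 2 and 4 lay below all APLP2KO arrays for 17 of 18. In such bulk tissue, fewer cells of a type and less RNA per cell cannot be told apart, and how these markers came to differ was not tested.

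The list holds ion channels and transporters of the epithelium. Kcnj13, the inward rectifier potassium channel Kir7.1, had signals of 24.6, 80.9, 282 and 68.6 in N-dCKO, against 389.7, 459, 535 and 403 in APLP2KO. Its groups did not overlap, and the log2 fold change was -2.32 ± 0.42 (adjusted p = 0.0591). Kcne2, a potassium channel subunit of the apical membrane, read 4.98, 4.87, 155 and 10.8 in N-dCKO, against 165, 219, 202 and 239.7 in APLP2KO. N-dCKO arrays 1, 2 and 4 were near the bottom of the scale, where the fold change on the log2(signal + 9) scale (-2.92 ± 0.59, adjusted p = 0.0751) understates the difference. Clic6, an intracellular chloride channel protein, read 18.0, 34.1, 399 and 38.8 in N-dCKO, against 486, 639, 629 and 382 in APLP2KO. For Clic6 array 3 of N-dCKO lay within the APLP2KO range (-2.95 ± 0.55, adjusted p = 0.0591). Aqp1, the water channel of the epithelium, read 25.9, 53.6, 139 and 14.8 in N-dCKO, against 172, 208, 179.6 and 128 in APLP2KO (-1.76 ± 0.39, adjusted p = 0.106).

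Secreted and regulatory genes of the epithelium followed. Ttr, transthyretin, the thyroid hormone carrier that the choroid plexus secretes, read 109.8, 283, 34285 and 715 in N-dCKO, against 33727, 26839, 35056 and 31224 in APLP2KO. Array 3 was as bright as the APLP2KO arrays, which lay close to the brightest signals of any probe set (30292 to 37682 on these arrays), and the other N-dCKO arrays were dim (log2 fold change -5.03 ± 1.003, adjusted p = 0.0751). Otx2, the transcription factor that maintains the epithelium, read 0.425, 8.38, 132 and 14.4 in N-dCKO, against 163, 186, 264 and 127 in APLP2KO (-2.79 ± 0.55, adjusted p = 0.0751). With no pseudocount the Otx2 value was -4.30, and with 4 times the pseudocount -1.82. Folr1, the folate receptor that carries folate into the cerebrospinal fluid, read 55.3, 66.2, 385 and 50.3 in N-dCKO, against 562, 546, 544 and 323 in APLP2KO (-2.25 ± 0.43, adjusted p = 0.0635). Kl, klotho, a co-receptor of fibroblast growth factors, had a log2 fold change of -1.46 (adjusted p = 0.0939). The insulin-like growth factor gene Igf2, which the leptomeninges also make, was the member nearest to 0 at -0.24.

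**Figure D2:**
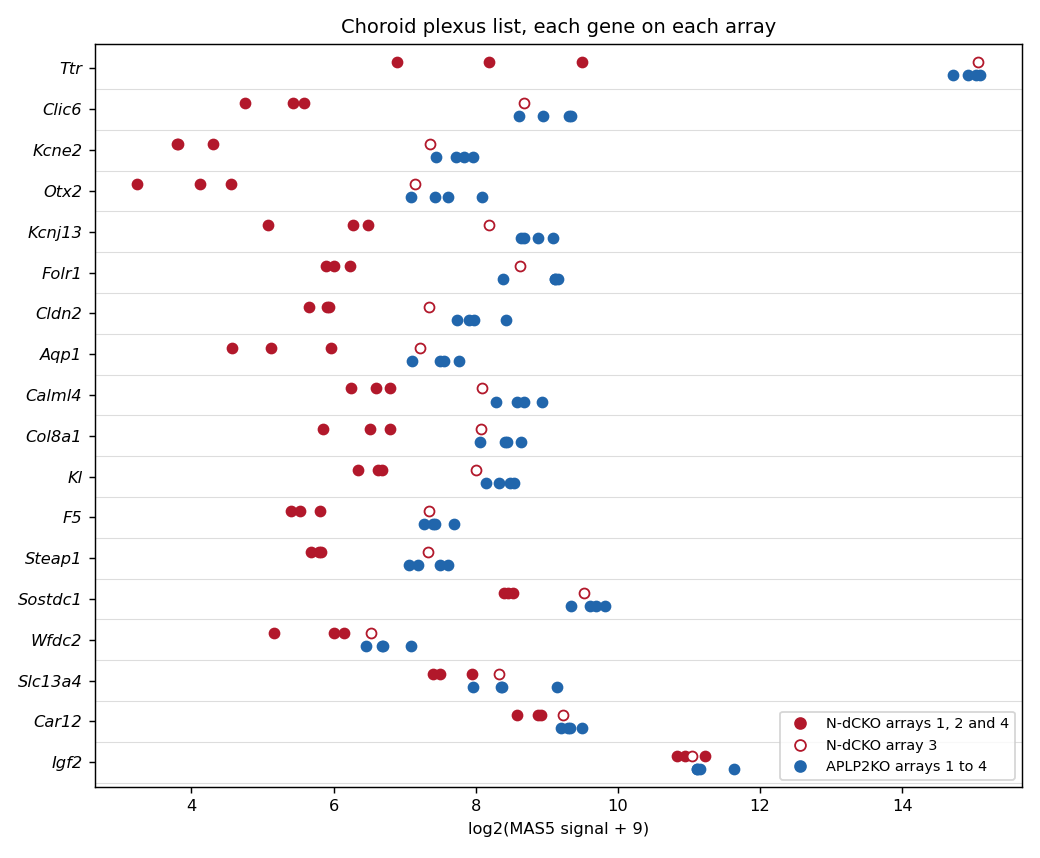
Signal on the log2(signal + 9) scale of each tested gene of the choroid plexus list on each N-dCKO array (red, array 3 as open circles) and each APLP2KO array (blue). N-dCKO arrays 1, 2 and 4 lie left of all APLP2KO arrays for 17 of 18 genes, and array 3 lies beside the APLP2KO arrays for most.

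N-dCKO array 3 was singled out for its high values on the choroid plexus list, so results without it are no test of that list. Without it the list had a median of -2.04 and 15 of its 18 genes passed, among 35 called genes (0.3%). Ttr was at -6.75 ± 0.34 (adjusted p = 3.47e-10), Clic6 at -3.80 ± 0.30 and Kcne2 at -3.77 ± 0.39. The size for Kcne2, as for other genes near 0 signal in N-dCKO, is set partly by the pseudocount, so these values give no order. Among the 20 called genes outside the list were App, Defb11, Ecrg4, a secreted peptide precursor of choroid plexus epithelium (-3.43 ± 0.30), and Sulf1, a sulfatase that edits heparan sulfate (-1.78 ± 0.24). Others with known epithelial roles were the keratin Krt8 (-1.67 ± 0.30), the carbonic anhydrase Car14 (-0.83 ± 0.17) and the cotransporter Slc12a2, also called NKCC1 (-0.50 ± 0.11). Myelin genes outside the myelin list were among them too, namely Galc, which degrades the myelin lipid galactosylceramide (-0.49 ± 0.10), and Sirt2, a deacetylase of oligodendrocytes (-0.34 ± 0.07). The 3 called genes that lay higher were Cap1, an actin regulator (0.72 ± 0.14), Zbtb14, a zinc finger protein (0.41 ± 0.08), and Dpy19l3, a mannosyltransferase (0.52 ± 0.11). The genes outside the list and outside the naming rule were chosen after their values were seen.

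Ecrg4 and Sulf1 showed the same array pattern with all 8 arrays. Ecrg4 read 107, 176, 1271 and 157 in N-dCKO, against 1483, 2082, 1648 and 1416 in APLP2KO (log2 fold change -2.66 ± 0.51, adjusted p = 0.0591). Sulf1 read 112, 68.8, 223 and 92.1 in N-dCKO, against 314, 399, 377 and 249 in APLP2KO (-1.47 ± 0.28, adjusted p = 0.0591). For both, the groups did not overlap and array 3 was the highest N-dCKO array.

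On the background with APLP2 the choroid plexus list lay nearer to 0. In APPKO against WT the list median was -0.28, with 0 genes lower and 1 higher at an unadjusted p below 0.05 (all genes: 3.16% and 2.01%), and the list means were 8.30 to 9.39 in APPKO and 8.70 to 9.64 in WT. The test of the difference between the 2 comparisons, the interaction of the limma fit, called 0 of 11664 genes with all arrays, while 484 (4.15%) had an unadjusted p below 0.05, and 14 of the 18 choroid plexus genes were among them. Ttr had an interaction of -5.16 ± 1.42 and Clic6 one of -2.56 ± 0.78. Without N-dCKO array 3 the interaction called 11 genes, of which 8 were on the choroid plexus list, and the other 3 were Ecrg4, Defb11 and Galc. The array left out was chosen by its values on that list, so these calls are no separate test. Galc lay lower in N-dCKO than in APLP2KO (-0.44 ± 0.10) and higher in APPKO than in WT (0.26 ± 0.10). Its interaction over all arrays was -0.70 ± 0.13 (limma adjusted p = 0.557). Ttr also differed in sign between the comparisons, at 0.13 ± 1.003 in APPKO against WT.

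Genes of tissues that border the choroid plexus lay lower by less. Of 12 tested genes of ependyma and motile cilia, the lining of the ventricles, 11 were negative with a median of -0.26, 0 passed and 4 had an unadjusted p below 0.05 (4.31% of all genes were lower at that p). Without N-dCKO array 1 the median was -0.10. In APPKO against WT 11 of the 12 were negative too, with a median of -0.18. There 1 was lower at an unadjusted p below 0.05 (3.16% of all genes). Foxj1, the master regulator of motile cilia, read 58.0, 84.5, 144 and 103 in N-dCKO, against 136, 156, 179 and 140.2 in APLP2KO (-0.66 ± 0.21, adjusted p = 0.353). Here again array 3 was the highest N-dCKO array, and it overlapped the APLP2KO range. In APPKO against WT Foxj1 was at -0.50 ± 0.21 (limma unadjusted p = 0.0294, adjusted 0.92), and its arrays did not overlap. With a covariate made from the mean of the choroid plexus list, a fit chosen after seeing the data, the ependyma median was 0.13, and Foxj1 was 0.10.

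Genes of the leptomeninges and fibroblasts, the sheet that covers the brain and its vessels, had a median of -0.34, against 0.02 in APPKO against WT, and of -0.16 without APLP2KO array 4. Of 15 tested genes 14 were negative, 0 passed and 6 were lower at an unadjusted p below 0.05 (4.31% of all genes). Dcn, the matrix proteoglycan decorin, read 2303, 2301, 1766 and 2261 in N-dCKO, against 2806, 3071, 3003 and 3069 in APLP2KO. Its groups did not overlap, and it came closest to the threshold of all genes that missed it (-0.48 ± 0.08, adjusted p = 0.0566). For Dcn, N-dCKO array 3 was the lowest array, unlike the choroid plexus genes. Igfbp2, which binds insulin-like growth factors, read 1298, 1061, 1445 and 1132 in N-dCKO, against 2416, 2198, 1875 and 2167 in APLP2KO (-0.81 ± 0.19, adjusted p = 0.151). The groups of Igfbp2 were separate on every array.

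Myelin genes lay lower in N-dCKO. All 17 tested genes of oligodendrocytes and myelin lay below 0, at a median log2 fold change of -0.43. Of these 0 passed, 14 had an unadjusted p below 0.05 and 12 did not overlap between groups (all genes: 4.31% and 2.98%). The list means were 10.93, 11.26, 11.30 and 11.42 in the N-dCKO arrays, against 11.55, 11.63, 11.63 and 11.78 in the APLP2KO arrays. The groups did not overlap, and N-dCKO array 1 was the lowest N-dCKO array for all 17 genes. With array weights 2 myelin genes passed, Mag and Enpp6, and in a fit of only the groups compared Mag did. On the background with APLP2 the list gave a difference of like size: in APPKO against WT all 17 genes lay below 0 (51.7% of all genes did), the median was -0.48, 14 had an unadjusted p below 0.05 (3.16% of all genes were lower at that p), and 0 of the 17 had an interaction p below 0.05. A p that misses the threshold does not show that the 2 backgrounds gave the same difference.

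The list holds membrane and structural proteins of the sheath. Mag, the myelin-associated glycoprotein that faces the axon, read 2659, 2861, 2988 and 3382 in N-dCKO, against 4012, 4201, 4175 and 4737 in APLP2KO. All N-dCKO arrays were below all APLP2KO arrays (-0.53 ± 0.12, adjusted p = 0.151), and the APPKO against WT value was -0.52 ± 0.12. Mal, a proteolipid of compact myelin, read 4309, 6066, 6531 and 7138 in N-dCKO, against 8193, 9270.0, 9636 and 11151 in APLP2KO (-0.69 ± 0.20, adjusted p = 0.274). Cnp, a phosphodiesterase of non-compact myelin, read 12622, 13537, 15315 and 14093 in N-dCKO, against 17645, 15332, 18104 and 17343 in APLP2KO (-0.30 ± 0.09, adjusted p = 0.266). Mbp, the myelin basic protein, was the member nearest to 0 (-0.16).

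Genes of newly formed and precursor cells of the lineage lay lower too. Enpp6, a phosphodiesterase that marks newly forming oligodendrocytes, read 569, 746, 614 and 809 in N-dCKO, against 938, 1075, 890.4 and 1219 in APLP2KO. The groups were separate (-0.59 ± 0.13, adjusted p = 0.113). Of 9 tested genes of oligodendrocyte precursors 8 were negative with a median of -0.18, and 0 passed. At an unadjusted p below 0.05 there were 5, all lower, and 0 were free of overlap (all genes: 4.31% and 2.98%). Gpr17, a receptor of cells about to mature, had a log2 fold change of -0.31, and Olig1, a lineage transcription factor, one of -0.17. With the choroid plexus covariate the myelin median was -0.23, and with the Gapdh ratio as covariate it was -0.40. Both fits were chosen after seeing the data.

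**Figure D3:**
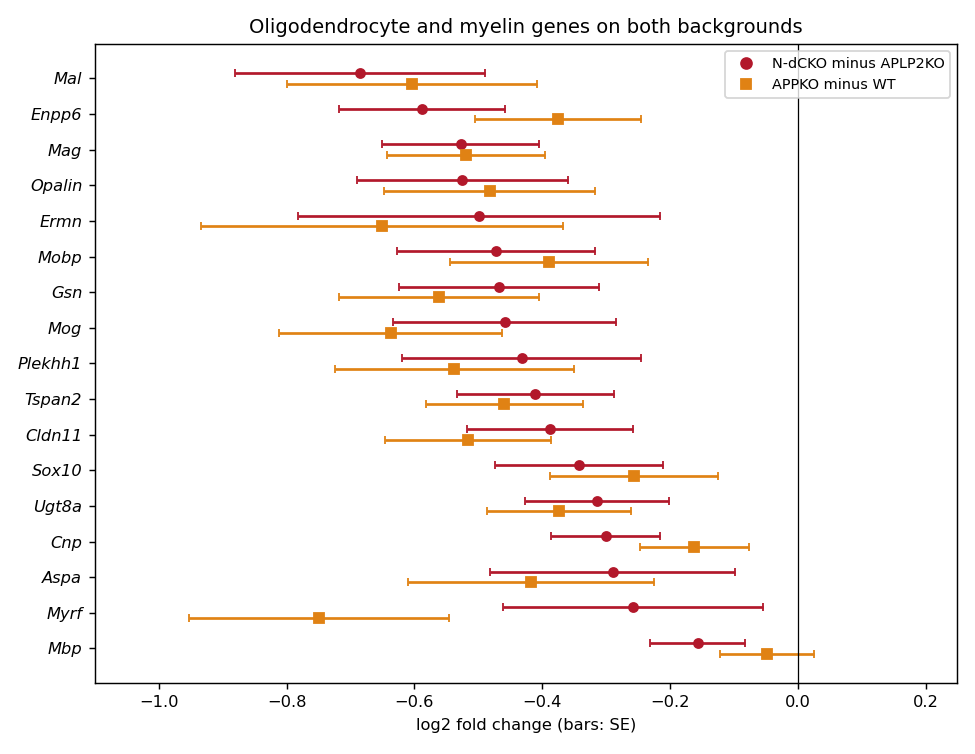
Log2 fold change with its SE for each tested gene of the oligodendrocyte and myelin list, in N-dCKO against APLP2KO (red circles) and in APPKO against WT (orange squares), 4 arrays per group. All values lie below 0, and the SE bars of the 2 comparisons overlap for most genes.

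Genes of cholesterol and fatty acid synthesis lay slightly lower. Of 22 tested genes 21 were negative, with a median of -0.18, 0 passed, 13 had an unadjusted p below 0.05 and 5 did not overlap between groups (all genes: 4.31% and 2.98%). In APPKO against WT 20 were negative with a median of -0.16, and 0 of the 22 had an interaction p below 0.05. Fdps, which makes farnesyl diphosphate, read 1432, 1503, 1511 and 1548 in N-dCKO, against 2044, 1978, 1846 and 1602 in APLP2KO (-0.31 ± 0.08, adjusted p = 0.236). Msmo1, the sterol C4-methyl oxidase whose promoter is shown above, read 2796, 2798, 2875 and 2766 in N-dCKO, against 3299.5, 3606, 3541 and 3440.3 in APLP2KO. Its 4 N-dCKO arrays lay close together and below every APLP2KO array (-0.30 ± 0.09, adjusted p = 0.296). Stard4, which carries sterols between membranes, had a log2 fold change of -0.44 (adjusted p = 0.169), and Dhcr7, the last enzyme of one branch of the pathway, one of -0.32. The fatty acid synthase gene Fasn was the 1 positive member at 0.08.

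Microglial genes lay lower by a small amount. Of 18 tested genes 15 were negative with a median of -0.13, 0 passed, 8 had an unadjusted p below 0.05 and 5 did not overlap (all genes: 4.31% and 2.98%). In APPKO against WT all 18 lay below 0 with a median of -0.15. Olfml3, a secreted matrix protein of microglia, read 476, 434, 380.3 and 363 in N-dCKO, against 634, 558, 521 and 553 in APLP2KO (-0.45 ± 0.11, adjusted p = 0.21). C1qa, a chain of the complement initiator C1q, read 1158, 1238, 986 and 1209.8 in N-dCKO, against 1284, 1382, 1477 and 1278 in APLP2KO (-0.24 ± 0.07, adjusted p = 0.296). All 3 C1q chains were separate between groups, with C1qb at -0.23 and C1qc at -0.18. Tmem119, a marker of resident microglia, lay at -0.28, while Cx3cr1, the fractalkine receptor, was at 0.07.

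Of 9 tested complement genes 8 lay below 0, the median was -0.18, and 5 were lower at an unadjusted p below 0.05. Among these 5 were C1qa, C1qb and C1qc, which are also on the microglia list, so the lists are not separate results. Of all genes, 4.31% were lower and 4.13% higher at that p. Cd55, which shields cells from complement, read 106, 68.8, 56.3 and 77.3 in N-dCKO, against 146, 119, 108 and 146 in APLP2KO (-0.71 ± 0.21, adjusted p = 0.284). The groups were separate, with signals near the filter on dim genes. Interferon response genes had a median of -0.15, with 2 of 16 at an unadjusted p below 0.05. That median rested on few arrays: it was -0.04 without N-dCKO array 1, -0.06 without APLP2KO array 1, -0.23 without N-dCKO array 3 and 0.06 with the choroid plexus covariate. The 2 interferon genes at an unadjusted p below 0.05 were Ifi27 (-0.45 ± 0.11, adjusted p = 0.151) and Ifitm3, which blocks viral entry (-0.33 ± 0.12, adjusted p = 0.426). In APPKO against WT the interferon median was 0.08. Endothelial and mural genes had a median of -0.15 (-0.09 without APLP2KO array 4), with 4 of 19 at that p, such as Vtn, vitronectin made by pericytes in the brain (-0.33 ± 0.07, adjusted p = 0.139). Astrocyte genes, by contrast, had a median of -0.02, with 2 of 16 higher at that p and 0 lower.

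Genes of interneurons lay slightly higher in N-dCKO. Of 15 tested genes 13 were positive with a median of 0.15, 0 passed, 7 had an unadjusted p below 0.05 and 4 did not overlap between groups (all genes: 4.13% and 2.25%). The list means were 10.96, 10.85, 10.89 and 10.92 in the N-dCKO arrays, against 10.74, 10.75, 10.81 and 10.71 in the APLP2KO arrays. The groups did not overlap, and the difference was small. In APPKO against WT the median was 0.03, and 3 of the 15 genes had an interaction p below 0.05 (4.15% of all genes).

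Slc32a1, the vesicular GABA transporter, read 1745, 1656, 1453 and 1657 in N-dCKO, against 1218, 1403, 1427 and 1302 in APLP2KO. The groups were separate (0.28 ± 0.08, adjusted p = 0.232), and the interaction was 0.42 ± 0.11. Gad2, a GABA-synthesizing enzyme, was at 0.21 ± 0.08 and its arrays overlapped. Pvalb, the calcium buffer of fast-spiking cells, read 1647, 1599, 1689 and 1771 in N-dCKO, against 1330.5, 1383, 1567 and 1313 in APLP2KO (0.26 ± 0.09, adjusted p = 0.426). Reln, the secreted protein reelin, was at 0.26 ± 0.09. The peptide markers Sst (-0.05), Npy (0.04) and Cck (0.0018) lay near 0, as did Calb2 (-0.01).

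Channels and receptors of neurons leaned the same way by less. Of 24 tested potassium channel genes 19 were positive with a median of 0.07, and 5 had an unadjusted p below 0.05 (4.13% of all genes were higher and 4.31% lower at that p). Kcnc1, the fast delayed rectifier Kv3.1 of fast-spiking cells, read 2267, 2410.2, 2340.1 and 2211 in N-dCKO, against 1752, 1669, 1860.0 and 1792 in APLP2KO. The groups were well separated (0.38 ± 0.11, adjusted p = 0.266), while the value in APPKO against WT was 0.08. Of 25 tested glutamate receptor genes 20 were positive with a median of 0.08, and 5 were at that p. They included the kainate receptor subunits Grik2 (0.36), Grik3 (0.28) and Grik1 (0.26), and Cacng2, the AMPA receptor partner stargazin (0.21 ± 0.07, adjusted p = 0.426), whose arrays did not overlap. Of 26 tested genes of calcium channels, stores and pumps 18 were positive with a median of 0.05, with 5 higher and 1 lower at that p.

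**Figure D4:**
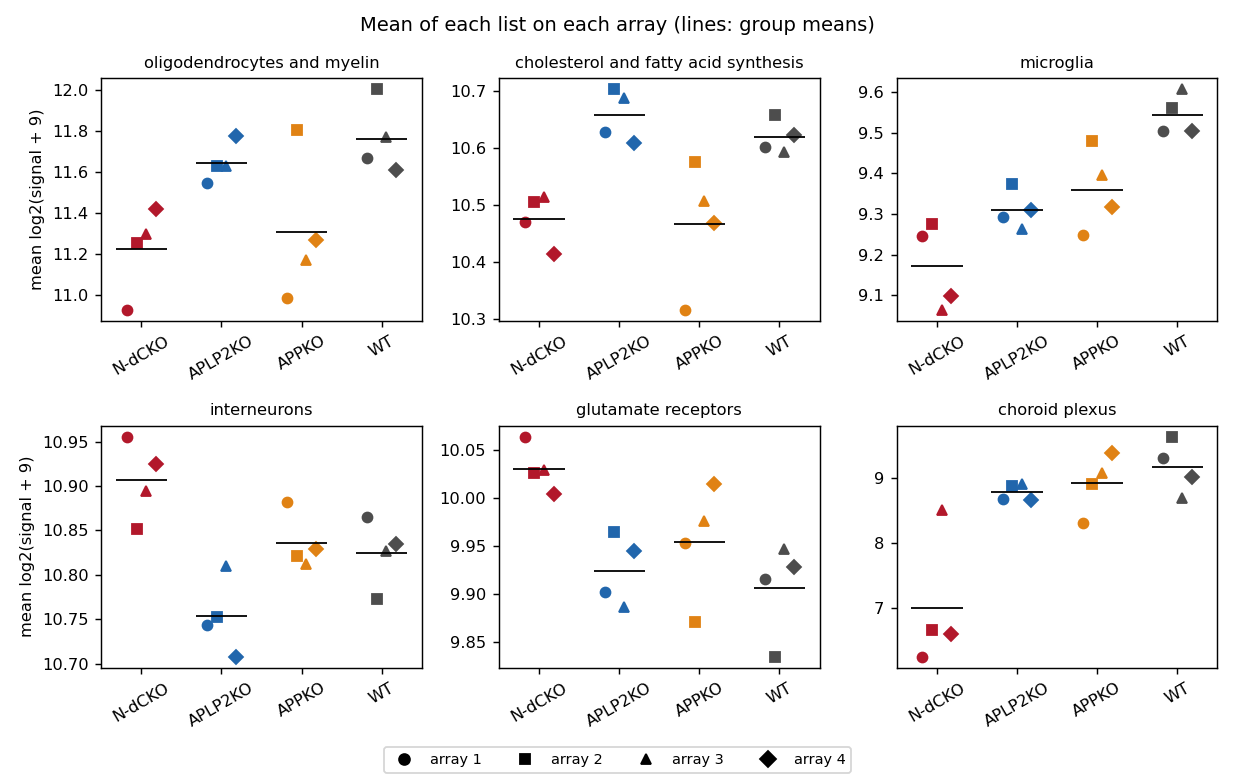
Mean of each of 6 gene lists on each array, in log2(signal + 9), with symbols for arrays 1 to 4 and lines at the group means; the vertical axes differ between panels and do not start at 0. The N-dCKO arrays lie below the APLP2KO arrays for the myelin, cholesterol and choroid plexus lists and above them for interneurons and glutamate receptors, with N-dCKO array 3 at 8.50 in the choroid plexus panel.

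Activity-regulated genes gave a mixed picture. Of 22 tested immediate early genes 17 were positive with a median of 0.12, 3 were higher and 1 lower at an unadjusted p below 0.05 (all genes: 4.13% and 4.31%), and 0 passed. The median was 0.06 without APLP2KO array 1, 0.06 without N-dCKO array 4 and 0.21 without N-dCKO array 1. Egr3, a zinc finger transcription factor, read 5034, 4665, 4535 and 4971 in N-dCKO, against 3396, 4115, 4168 and 4150.4 in APLP2KO. Its groups were separate (0.28 ± 0.09, adjusted p = 0.353). Egr2 was at 0.67 and Per1 at 0.25, Jun was at -0.26, and Fos was at 0.41 and Arc at 0.16. Among neuropeptides, Crh, corticotropin-releasing hormone, read 799, 513, 576 and 712 in N-dCKO, against 444, 534, 443 and 428 in APLP2KO, with overlap (0.47 ± 0.16, adjusted p = 0.386). Vgf, a neurotrophin-induced peptide precursor, was at 0.18.

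Genes that process or bind APP lay near 0. Apart from App, 0 of the 14 other tested genes of the APP family and secretases passed, and the list median with App was -0.07. Adam17, an alpha-secretase, read 406, 463, 435 and 384 in N-dCKO, against 516, 541, 456 and 524 in APLP2KO (-0.27 ± 0.11, adjusted p = 0.5). Bace1, the beta-secretase, was at 0.04, and the gamma-secretase subunits Ncstn, Psenen, Aph1a and Aph1b were at -0.08, -0.02, -0.02 and -0.03. Of 29 tested adaptors and binding partners 21 were positive with a median of 0.05, and 3 were higher at an unadjusted p below 0.05 (4.13% of all genes). Apbb1, the adaptor Fe65 that binds the tail of APP, was at 0.15 ± 0.05 with no overlap, and Sorl1, a sorting receptor of APP, was at 0.15 ± 0.06.

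Genes that have been reported as targets of the APP intracellular domain had a median of -0.02. Of 18 tested genes 5 had an unadjusted p below 0.05, all lower (4.31% of all genes). One is App itself, and Ttr and Aqp1 are also on the choroid plexus list. The other 2 were Cd82, a tetraspanin (-0.43 ± 0.16), and Tagln, a smooth muscle protein (-0.84), which is also on the endothelial and mural list. Bace1 (0.04), Lrp1 (0.05), Gsk3b (-0.0027) and Mme, the amyloid-degrading enzyme neprilysin (0.15), lay near 0.

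No gene passed limma as higher in N-dCKO, while 482 lay higher at an unadjusted p below 0.05. With array weights Ythdc2 passed as higher (adjusted p = 0.0494), and in a fit of only the groups compared Kcnc1 did. The 12 with the smallest p in that direction differed by little. Ythdc2, an RNA helicase that binds methylated RNA, read 772, 702, 771 and 718 in N-dCKO, against 518, 536, 602 and 544 in APLP2KO (0.42 ± 0.09, adjusted p = 0.0939). Fxr2, a relative of the fragile X protein, read 635, 597, 602 and 628 in N-dCKO, against 440.3, 484, 439 and 463 in APLP2KO (0.42 ± 0.10, adjusted p = 0.147). For both the groups were clearly separate. Gfpt1, the first enzyme of hexosamine synthesis, was at 0.21 ± 0.05 in N-dCKO against APLP2KO and at -0.11 in APPKO against WT, with an interaction of 0.32 ± 0.08. Slc8a1, a sodium-calcium exchanger, was at 0.28 ± 0.07. The others were Grhl1 (0.50), Fam160a2 (0.46), Cox6a2 (0.44), Acot1 (0.42), Dpy19l3 (0.42), Fndc3a (0.35), Snhg11 (0.25) and Atxn7l3 (0.18), with adjusted p between 0.18 and 0.232.

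Most other lists lay close to the median of all genes. Dentate granule neuron genes had a median of -0.06 and genes of CA1, CA2 and CA3 pyramidal neurons one of -0.01, with 0 lower at an unadjusted p below 0.05 in both. Of 15 tested pyramidal genes 2 were higher at that p (all genes: 4.31% lower and 4.13% higher). They were Pou3f1 (0.20 ± 0.07, adjusted p = 0.426), whose arrays did not overlap, and Fibcd1 (0.16 ± 0.07, adjusted p = 0.554), whose arrays did. Presynaptic vesicle genes (0.03), postsynaptic and adhesion genes (0.05), neurogenesis genes (0.04) and neurotrophins and their receptors (0.05) each had at most 2 members at that p. Oxidative phosphorylation genes were at -0.03, and genes of ER chaperones and heat shock proteins were at 0.0019 with 0 of 27 at that p. Cytosolic ribosomal protein genes were at -0.06 (-0.0084 with quantile normalization), with 16 of 19 negative and 2 lower at that p. Of them 4 had an interaction p below 0.05 (4.15% of all genes). Circadian clock genes were at 0.09, with 15 of 18 positive and 2 higher at that p. A lean was thus not confined to neuronal channels and receptors. Iron, copper and zinc genes had a median of -0.01, with 4 of 22 lower at that p, such as Hfe, a regulator of iron uptake (-0.49 ± 0.16, adjusted p = 0.361), and Cp, the copper oxidase ceruloplasmin (-0.40 ± 0.15, adjusted p = 0.461). For Hfe the value was 0.13 with the choroid plexus covariate.

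**Figure D5:**
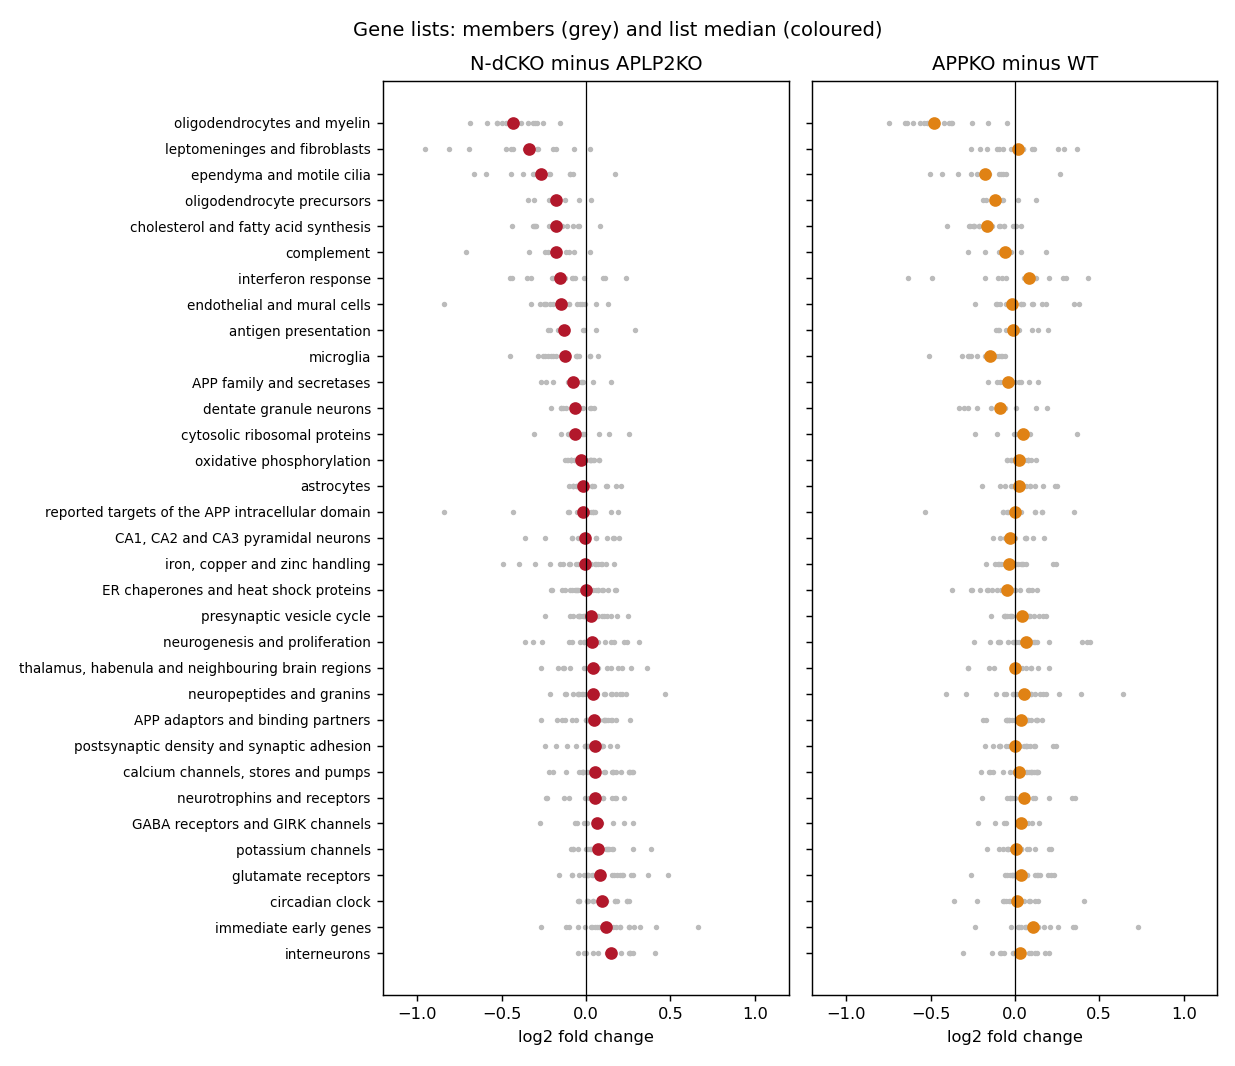
Log2 fold changes of the members (grey) and the median (coloured) of each gene list, in N-dCKO against APLP2KO (left) and in APPKO against WT (right). The choroid plexus list, lists with under 5 tested genes and the points of App, Ttr and Aqp1 are not drawn. The myelin list has the lowest median in both panels (-0.43 and -0.48), and interneurons the highest in the left panel (0.15).

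Genes near App on the chromosome can travel with a deleted allele and were examined as a group. The sources used here do not say whether they did in these mice. Within 20 Mb of App, 80 other genes were tested, of which 0 passed limma and 8 (10%) had an unadjusted p below 0.05, against 8.44% of all genes. The 2 with the largest differences, Clic6 and Kcne2, are on the choroid plexus list. Around Aplp2, whose loss both groups share, 0 of 203 genes passed and 14 (6.9%) were at that p.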

How the data were processed

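RNA was measured on 16 Affymetrix arrays, 4 per group. The deposited values are intensity values (MAS5 signals, linear scale), made by the authors with a version that is not stated, per the submitters' processing notes. The 2% trimmed mean was 500.003 on every array, and 0 values were at or below 0, and this scaling was kept. Of 45101 probe sets (64 controls, left out), 34945 carried 1 gene symbol in the platform annotation, 932 several and 9211 were not listed; 34741 were looked up in RefSeq genes of GRCm38.p6, which changed 0 symbols and were otherwise used only for which genes neighbour each other, since the array's build is not given.

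Signals were transformed as log2(signal + 9), a scale that understates changes of dim genes. Probe sets with a mean over all 16 arrays at or above the median (6.60, a signal of 88.2) were kept (22551). A gene dim in 1 group could thus pass through the others. The brightest probe set stood for each of 11664 genes. limma 3.58.1 (R 4.3.3, data.table version 1.17.8) was fitted with 1 mean per group over all 16 arrays and a variance trend, with 12 residual and 19.4 moderated degrees of freedom; the Benjamini-Hochberg adjustment covered all genes, and a gene was called at an adjusted p below 0.05. The median SE was 0.0979, and 0.138 for the interaction. Precision is limited by how many arrays there are. The ± of a log2 fold change is its SE; that of a signal or ratio is an SD. Single probe sets and quality measures had exact two-sided permutation tests. The fit was tested on simulated data.

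Members, 35 gene lists, tests and alternatives were chosen with earlier results of these data known. Named were App, Aplp2 and Aplp1; the 12 genes of smallest p in each direction, called ones first; and up to 4 members per list of smallest p. The limit of the last to an unadjusted p below 0.05 was added after seeing values, as were other members given as values. The alternatives were other scalings, pseudocounts, filters, probe set rules and variance models, a block for the replicate number, a fit of only the compared groups, each array left out and, added after seeing the data, covariates for the choroid plexus list and the Gapdh ratio.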

Additional observations from a re-analysis of the deposited data

Results flagged for a closer look

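Of 282 groups of 4 arrays examined, 12 (4.26%) had 1 array that stood far from the other 3, where chance gives about 5%. N-dCKO array 3 was the array in 6 of the 12. On the log2(signal + 9) scale it was the highest of its group for Cldn2 at 7.342, Folr1 at 8.622 and Kcne2 at 7.354, and it stood apart for Dcn at 10.79 and Sncb, a synuclein of presynaptic terminals, at 11.03. Its mean correlation with the other arrays of its group was 0.9711, the lowest of the 4. By the same measure the APLP2KO arrays gave 0.9691 to 0.9712, the APPKO arrays 0.9657 to 0.9695 and the WT arrays 0.9740 to 0.9756. N-dCKO array 4 stood apart for Gfra2, a co-receptor of the GDNF family, at 10.05. Among the APLP2KO arrays, array 4 stood apart for Folr1 at 8.377, array 3 for Stard4 at 8.911, array 2 for Crh at 9.084, and array 1 for Egr3 at 11.73 and for the mean of the reported targets of the APP intracellular domain at 10.16. What set these arrays apart was not tested.

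Among the 2461 bright probe sets with no gene or several genes listed, outside the genes tested above, 1 passed limma. It read 48.8, 66.5, 58.7 and 33.7 in N-dCKO, against 1509, 1450, 1537 and 1497 in APLP2KO. Its log2 fold change was -4.66 ± 0.20 (SE, adjusted p = 1.01e-11). It read 95.2, 67.8, 47.4 and 37.8 in APPKO, against 1578, 1541, 1372 and 1730 in WT, so it was low on the 8 arrays labelled as lacking APP. The annotation used here lists no gene for this probe set.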

How the results depend on the processing

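App was called in all 24 alternatives, Defb11 and Cldn2 in 10 of 23 each. Against 3 called genes, median centring gave 17, 4 times the pseudocount 5, no filter 1, the 75th percentile filter 1, each probe set tested alone 5, no variance trend 1, array weights 30, the ordinary equal-variance test 1 and the Gapdh ratio covariate 1. A fit of only the groups compared gave 4 (App, Igfbp2, Kcnc1 and Mag), of which App alone was shared with the 3. The choroid plexus covariate, which by construction removes most of that list's difference, gave 2 (App and Dcn). Leaving out 1 array gave 1 to 35 genes, with 35 only without N-dCKO array 3, and the interaction called 0 to 11, with 11 only without that array. The replicate number as a block gave 17 genes, 2 of them on the myelin list, and 55 with only the groups compared, 10 of them on that list and 4 higher; each N-dCKO array correlated best with its own number (r = 0.0822, 0.208, 0.0906 and 0.136 with the same-numbered APLP2KO array), a hint from the data and not the design, since no label pairs the arrays. Named genes turned sign in few fits, none of them on a called gene: with the mean over probe sets Aplp2 was 0.0018 and Sorl1 -0.0345; with the choroid plexus covariate Aplp1 was 0.0433, Ecrg4 0.0155, Kcne2 0.0618, Foxj1 0.10, Cfap126 0.12, Aqp1 0.0084 and Hfe 0.13; with median centring the dimmer Aplp1 probe set was -0.0066. Without 1 array, log2 fold changes ranged from -0.0317 to 0.0555 for that Aplp1 probe set, from -0.0884 to 0.0673, -0.14 to 0.17, -0.00035 to 0.11 and -0.0078 to 0.31 for the 4 dimmer Aplp2 probe sets, and the difference in median signal from -2.06 to 2.69. The Gapdh ratio difference ranged from 0.0211 to 0.0466, with an exact permutation p of 0.0286 without APLP2KO array 4. The difference in own-group correlation ranged from 0.00287 to 0.00415, with an exact permutation p of 0.0286 without N-dCKO array 3. Of the refitted list medians 394 moved by less than the spread between arrays and 26 by more. For dim genes, such as Otx2 and Kcne2 in N-dCKO, the size of the difference is poorly measured. Their direction is uncertain as well: neither passed (limma adjusted p = 0.0751 each), and they were called in 4 and 5 of 23 alternatives. The Otx2 arrays overlapped, and Kcne2 turned sign with the choroid plexus covariate.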
